A study of Mus musculus with 13 samples.

Results

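Cathepsins and matrix metalloproteases (MMPs) were described across whole testis and sorted round spermatids of mice with 3 genotypes at Wfdc15a. The genes were chosen by symbol alone, as Cts followed by 1 letter or Mmp followed by a number and an optional letter, which took 40 of the 30479 genes in the table: 18 cathepsins and 22 MMPs. Wfdc15a encodes a member of the WAP four-disulfide core family, which includes secreted protease inhibitors, and the study asked what it does in spermatogenesis. Whole testis was profiled in 3 libraries of knockouts (KO), 1 of a heterozygote (Het) and 2 of wild types (WT), and round spermatids in 3 KO, 2 Het and 2 WT libraries. All mice were at postnatal day 25. The labels name the 3 genotypes and describe neither the allele nor the strain. A testis library was made from 2 ng of RNA of the whole organ without its tunica albuginea, and a spermatid library from 100 to 200 cells sorted by DNA staining. Both were made with Smart-seq2, which copies full-length transcripts without recording their strand. Nothing in the labels ties a library to an animal, and the p-values therefore measure the spread between libraries, which may be technical.

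Cathepsins are mostly lysosomal proteases that break down proteins delivered by endocytosis, phagocytosis and autophagy. They fall into cysteine, aspartic and serine types and are made as inactive proenzymes. MMPs are zinc-dependent proteases of the cell surface and extracellular space, kept inactive by a propeptide and inhibited by TIMP proteins. In the testis, Sertoli cells take up the residual bodies and dying germ cells of the seminiferous epithelium and degrade them in lysosomes, and cathepsin L is a known Sertoli product. MMPs are known there for the turnover of basement membrane and of junctions between Sertoli and germ cells.

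Promoters of 5 genes are shown because they stand for the groups that the values separate: lysosomal cathepsins, MMPs read in these samples, and an MMP with almost no reads. Each runs from 250 bases before to 50 bases after the start in RefSeq on GRCm38.p6, 5′ to 3′ on the gene's strand. Capitals mark the letters CACGTG (the E-box bound by TFEB-type factors, among others), GGGCGG or its reverse complement CCGCCC (the GC box), and TGACTCA or TGAGTCA (the AP-1 element). Both strands were searched, and no match overlaps another in the sequences shown.
Ctsl, chr13:64370471-64370770, minus strand: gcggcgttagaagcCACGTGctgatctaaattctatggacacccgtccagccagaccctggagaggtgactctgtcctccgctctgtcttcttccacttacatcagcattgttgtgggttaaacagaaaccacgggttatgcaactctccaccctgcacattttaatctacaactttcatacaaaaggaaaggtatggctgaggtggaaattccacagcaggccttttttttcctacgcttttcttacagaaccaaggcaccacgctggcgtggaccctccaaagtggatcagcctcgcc
Ctsd, chr7:142387778-142388077, minus strand: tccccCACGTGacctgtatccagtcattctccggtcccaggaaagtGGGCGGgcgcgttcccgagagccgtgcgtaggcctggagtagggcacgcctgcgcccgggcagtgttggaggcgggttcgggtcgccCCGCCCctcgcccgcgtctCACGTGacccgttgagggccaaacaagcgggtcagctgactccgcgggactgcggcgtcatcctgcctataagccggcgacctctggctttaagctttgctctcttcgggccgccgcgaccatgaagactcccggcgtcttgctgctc
Mmp14, chr14:54431348-54431647, plus strand: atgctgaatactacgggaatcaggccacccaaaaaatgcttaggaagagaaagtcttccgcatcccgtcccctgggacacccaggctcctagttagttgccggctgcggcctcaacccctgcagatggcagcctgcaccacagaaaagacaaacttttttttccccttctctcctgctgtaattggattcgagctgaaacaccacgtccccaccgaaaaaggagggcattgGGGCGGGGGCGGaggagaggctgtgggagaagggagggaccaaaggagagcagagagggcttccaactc
Mmp28, chr11:83462991-83463290, minus strand: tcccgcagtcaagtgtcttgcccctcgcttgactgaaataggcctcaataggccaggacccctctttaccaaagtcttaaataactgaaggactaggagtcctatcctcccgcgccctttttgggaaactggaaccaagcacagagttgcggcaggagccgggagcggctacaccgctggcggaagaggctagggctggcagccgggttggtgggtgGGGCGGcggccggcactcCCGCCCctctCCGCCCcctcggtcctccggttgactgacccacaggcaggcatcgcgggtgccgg
Mmp13, chr9:7272264-7272563, plus strand: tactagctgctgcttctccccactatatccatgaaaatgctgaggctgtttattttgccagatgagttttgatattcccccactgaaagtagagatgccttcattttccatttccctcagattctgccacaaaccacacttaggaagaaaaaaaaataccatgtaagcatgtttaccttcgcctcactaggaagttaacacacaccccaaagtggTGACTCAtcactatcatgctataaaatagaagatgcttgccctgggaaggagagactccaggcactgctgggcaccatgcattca
Of the 40 genes, 31 matched at least 1 RefSeq promoter and 35 promoters in all. CACGTG stood in 5 of these 35 (14.3%; those of Ctsa, Ctsd, Ctsf, Ctsl and Mmp7), against 7.15% of all 32851 promoters of the same length. The AP-1 element stood in 6 of 35 (17.1%), against 5.2% of all promoters, and the 6 belong to Mmp10, Mmp12, Mmp13, Mmp1b, Mmp3 and Mmp7, which lie together on chromosome 9. The GC box stood in 14 of 35 (40.0%), against 35.7% of all promoters. These matches describe the letters in the window and show no binding.

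Values are RPM, the reads of a gene scaled to a common library size, recovered from the deposited log2 values. Library totals were 7375270 to 15792284 reads in KO testis, 10419944 in Het testis and 15785198 to 18438704 in WT testis, and 10825690 to 20927428 in round spermatids, so that 3 reads corresponded to 0.143 to 0.407 RPM. Wfdc15a RNA was at 116, 36.8 and 44.3 RPM in the KO, 48.4 RPM in the Het and 212 and 207 RPM in the WT testis libraries. In round spermatids Wfdc15a reached 97.9, 67.4 and 48.1 RPM in KO, 65.0 and 71.5 RPM in Het, against 267 and 234 RPM in WT. It was thus lower in every KO library than in either WT library, and still had reads in all of them. Over all tested genes, the first principal component (71.6% of the variance in testis, 55.6% in round spermatids) placed KO replicate 1 beside both WT libraries in each cell type. KO replicates 2 and 3 lay with the Het libraries. These are called library set 1 (KO replicate 1 and WT) and library set 2 (KO replicates 2 and 3 and Het). They were drawn from the data, and the labels record no batch.

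Markers of Sertoli cells and stroma differed between the same sets. The summed level of 15 Sertoli cell markers in testis was 29.4, 1561 and 1642 RPM in KO, 1492 RPM in Het and 75.2 and 74.6 RPM in WT. Clu alone made up 2.44, 1159 and 1204 RPM of it in KO, 1149 RPM in Het and 16.3 and 17.5 RPM in WT. KO minus WT was positive for 14 of the 15 and negative for 1, Defb36. Defb36 was at 7.86, 10.9 and 15.6 RPM in KO, 9.31 RPM in Het and 31.9 and 28.1 RPM in WT. Sox9, Amh, Fshr, Inhbb and Trf had no read in testis KO replicate 1, Amh and Inhbb had none in either WT testis library, and none of the 15 was at 0 in the others. In round spermatids the same sum was 15.3, 191 and 172 RPM in KO, 78.9 and 75.7 RPM in Het, against 23.5 and 23.0 RPM in WT. The 8 stroma markers, among them Dcn and collagen genes, summed to 223, 779 and 1262 RPM in KO, 760 RPM in Het and 21.1 and 16.6 RPM in WT testis, with KO replicate 1 between WT and the rest. In spermatid libraries they summed to 6.79, 633 and 1093 RPM in KO, 553 and 496 RPM in Het, against 9.64 and 15.4 RPM in WT. The source of this RNA in the sorted libraries of set 2 was not tested. The 12 round spermatid markers, none at 0 in any library, summed to 2155, 1801 and 1274 RPM in KO spermatid libraries, 1691 and 1765 RPM in Het, against 2345 and 2292 RPM in WT. KO minus WT was negative for 11 of the 12 (median -0.42, 0 called by limma), and so was Het minus WT for 11 of 12 (median -0.46, 0 called). In testis the sum was 1549, 829 and 657 RPM in KO, 785 RPM in Het and 4363 and 2046 RPM in WT. The markers split there, with KO minus WT positive for 5 and negative for 7 (median -0.33, 0 called by limma). Spaca1 was at 90.3, 184 and 147 RPM in KO testis, against 37.1 and 36.4 RPM in WT. Prm1 was at 268, 32.1 and 16.7 RPM in KO testis, against 1106 and 546 RPM in WT. In bulk RNA, fewer cells of a type and less RNA per cell cannot be told apart, and the part of these markers in the results below was not tested.

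**Figure D1:**
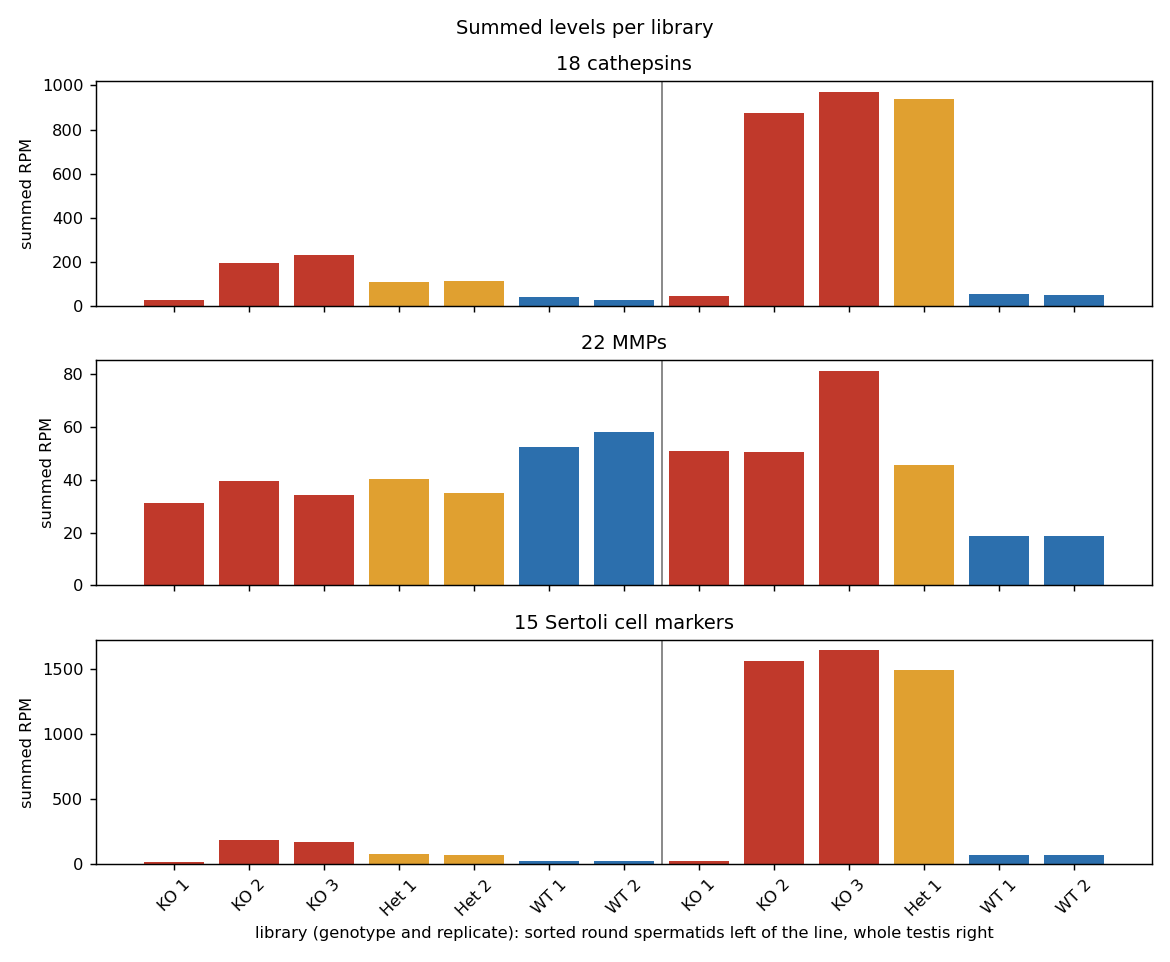
Summed RPM of the 18 cathepsins (top), the 22 MMPs (middle) and 15 Sertoli cell markers (bottom), 1 bar per library, with sorted round spermatids left of the line and whole testis right of it. The cathepsin and Sertoli sums are high in KO replicates 2 and 3 and in Het testis. They are low in KO replicate 1 and in WT. The MMP sum in round spermatids is highest in the 2 WT libraries, where Mmp28 makes up 89.6% and 82.2% of it. Without Mmp28 the spermatid MMP sum is 5.49 and 10.3 RPM in WT and 3.82 RPM in KO replicate 1. It is then higher in KO replicates 2 and 3 and in Het, at 13.9 to 20.8 RPM.

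Reads were found for 37 of the 40 genes, and 25 reached 1 RPM in at least 1 library. Ctsg, Ctsj and Ctsq had no read in any of the 13 libraries; Ctsg is the neutrophil serine protease, and Ctsj and Ctsq belong to the cathepsins that rodents express in placenta. The other 12 genes under 1 RPM everywhere were Ctsm, Ctsw and 10 MMPs. Of 9 MMPs in the cluster on chromosome 9 (chr9:7272514-7699585), 8 stayed at or below 0.739 RPM, including the collagenases Mmp8 and Mmp13, the stromelysins Mmp3 and Mmp10 and the macrophage elastase Mmp12. The exception in this cluster was Mmp20, an enamel protease, at 3.14 RPM in 1 WT spermatid library. The placental cathepsins on chromosome 13 (chr13:61000179-61541839) were similar, with 3 of 4 under 1 RPM. Ctsr was the exception, with 40 reads (1.96 RPM) in round spermatid WT replicate 2 and none in the other 12 libraries. Mmp9, the larger gelatinase, did not pass 1.03 RPM in any library. At least 10 RPM was reached by 14 genes in some testis library and by 7 in some spermatid library.

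**Figure D2:**
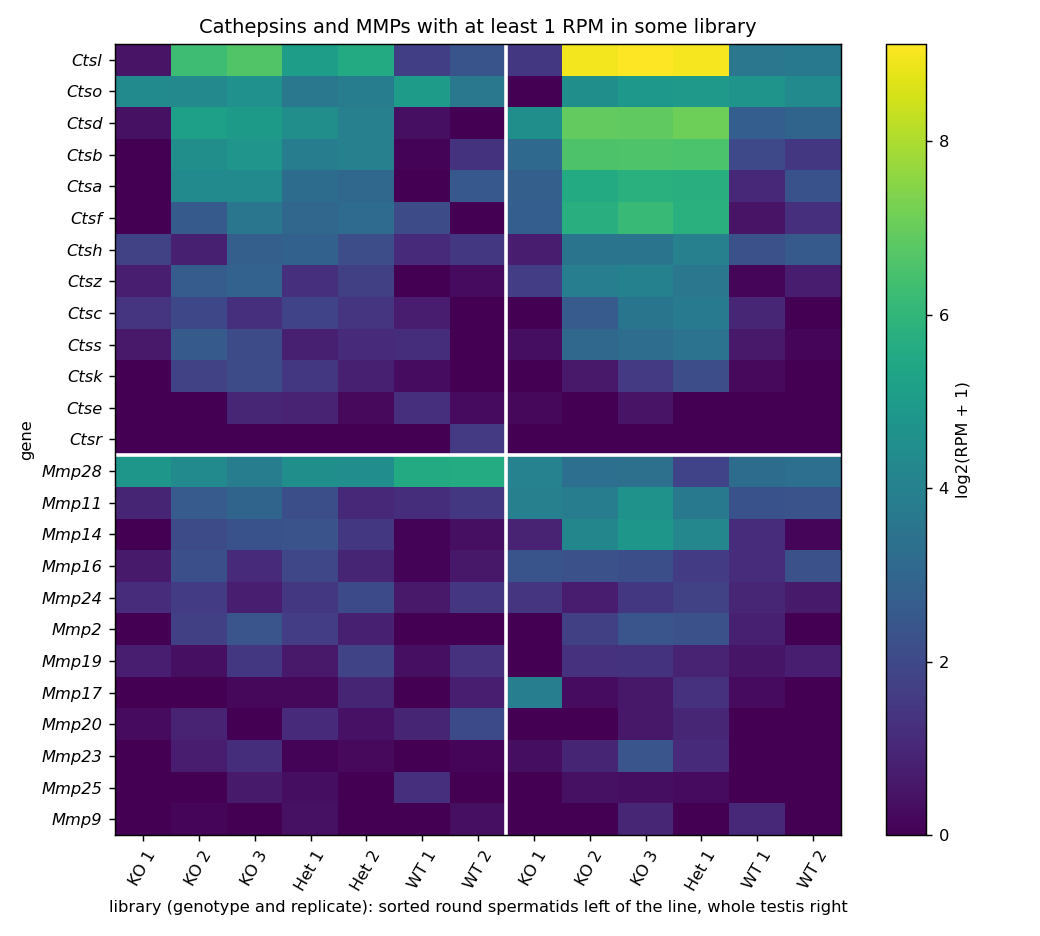
Level of the 25 genes that reached 1 RPM in some library, as log2(RPM + 1), in the 13 libraries (columns, round spermatids then testis, KO, Het and WT from left to right in each). The block of high cathepsin values in testis covers KO replicates 2 and 3 and Het, with Ctsl at 502 to 556 RPM.

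Per kilobase of exon, the order of mean levels differed between the groups. In testis the highest were Ctsl (54.5 RPM per kb), Ctsd (37.1) and Ctsb (10.9) in KO, and Ctsl (79.6), Ctsd (58.7) and Ctsb (15.4) in Het. In WT testis they were Ctso (4.41 RPM per kb), Ctsd (2.60) and Mmp28 (2.26). In round spermatids Ctsd and Ctsl led at 9.24 and 9.12 RPM per kb in KO and at 7.72 and 6.14 in Het, and Mmp28 led at 12.3 RPM per kb in WT, ahead of Ctso at 4.13. The KO means carry a large spread: Ctsl and Ctsd in KO did not differ beyond it in either cell type.

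In testis, KO was compared with WT to find which of these proteases go with loss of Wfdc15a. Cathepsins made up 46.4, 877 and 971 RPM in the KO libraries, 937 RPM in Het and 52.9 and 51.0 RPM in WT. Of the 20 genes that passed the filter on low values, 0 passed limma's test at an adjusted p under 0.05 in either direction (0% of 18570 genes called), with 6 at an unadjusted p below 0.05, and voom called 0. The unadjusted p was below 0.05 for 4380 genes (23.6%). KO minus WT was positive for 19 of 20, with a median of +1.51 on the log2(RPM + 1) scale, where the median over all tested genes was +0.63. With each library centred on its median, 13 of 20 were positive, and 8 of 11 cathepsins. The fit with the library set as a covariate rests, for KO minus WT, on KO replicate 1 against both WT libraries. It left 12 of 20 positive, 5 of 11 cathepsins, with a median of +0.46 over the 20 and -0.14 over all genes. For 8 genes (Ctsa, Ctsb, Ctsd, Ctsf, Ctsz, Mmp11, Mmp17 and Mmp23) every KO library was above both WT libraries, against 28.2% of all genes, and for none was every KO library below (14.1% of all genes). Of these, Mmp17 had 3 reads in KO replicate 2 (0.235 RPM) against 4 in WT replicate 1 (0.217 RPM). Mmp23 had 2 reads in KO replicate 1, where 3 reads would be 0.407 RPM.

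Ctsl encodes cathepsin L, a cysteine endopeptidase (chr13:64359337-64370890), and had the highest level per kilobase of the 40 in KO and Het testis. It was at 1.76, 502 and 556 RPM in KO testis, 516 RPM in Het and 11.3 and 11.8 RPM in WT. KO replicate 1 was the lowest of the 6 libraries, so the groups overlapped, and limma's KO minus WT difference was +2.87 ± 2.26 (SE, adjusted p = 0.452). With the library set as a covariate it was -2.18, which rests on KO replicate 1 alone against WT, where Ctsl had 13 reads in KO. Clu, a Sertoli marker, was at 2.44, 1159 and 1204 RPM in KO, 1149 RPM in Het and 16.3 and 17.5 RPM in WT testis, the same order of sets. Ctsd encodes cathepsin D, the main aspartic protease of lysosomes (chr7:142375911-142388038). It was at 22.2, 121 and 118 RPM in KO testis, 138 RPM in Het and 5.64 and 6.59 RPM in WT. Here KO replicate 1 was also above both WT libraries, and the difference was +3.30 ± 0.81 (SE, limma adjusted p = 0.0883). Gm49369, which shares 808 of Ctsd's 2351 exon bases on the same strand, had nearly the same profile (22.4, 99.3 and 97.4 RPM in KO, 118 RPM in Het, 5.21 and 6.21 RPM in WT), and reads of the shared part cannot be told apart.

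Further lysosomal cathepsins were likewise high in the libraries of set 2. Ctsb, cathepsin B, a cysteine protease with both endo- and exopeptidase activity, was at 7.73, 93.8 and 97.1 RPM in KO testis, 92.9 RPM in Het and 3.04 and 1.77 RPM in WT (KO minus WT, log2 scale, +3.69 ± 1.14, SE, limma adjusted p = 0.129). Ctsf, a cysteine cathepsin, was at 5.56, 52.9 and 69.7 RPM in KO, 54.4 RPM in Het and 0.380 and 1.39 RPM in WT (+4.01 ± 1.14, limma adjusted p = 0.113). Both genes were above WT in each KO library, with KO replicate 1 far nearer to WT than to the other KO libraries. Ctsa, protective protein/cathepsin A, a serine carboxypeptidase that stabilises lysosomal beta-galactosidase, lies on chromosome 2 (chr2:164832873-164841032), 633 kb from Wfdc15a. It was at 5.83, 46.3 and 53.8 RPM in KO, 53.1 RPM in Het and 1.08 and 3.86 RPM in WT (+3.03 ± 1.07, limma adjusted p = 0.159). Ctsz, a carboxypeptidase, was at 2.17, 14.0 and 15.3 RPM in KO, 11.3 RPM in Het and 0.108 and 0.634 RPM in WT (+2.77 ± 0.97, limma adjusted p = 0.156). Without strand, reads of Ctsb, Ctsa and Mmp28 cannot be separated from their antisense partners Fdft1, Pltp and 1700020L24Rik where exons overlap (774, 495 and 466 bases). Fdft1 was at 311 to 777 RPM in every library, also in those where Ctsb was near 0, and Pltp followed the sets like Ctsa, at 5.83, 39.2 and 36.2 RPM in KO, 35.5 RPM in Het and 1.19 and 0.0634 RPM in WT testis.

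Cathepsins known from immune cells and osteoclasts did not exceed 12.5 RPM in testis. Ctss, used by antigen-presenting cells to process the MHC class II invariant chain, was at 0.271, 7.45 and 8.49 RPM in KO testis, 10.2 RPM in Het and 0.542 and 0.127 RPM in WT. Ctsc, which activates granule serine proteases, was at 0, 5.18 and 10.7 RPM in KO, 12.5 RPM in Het and 0.976 and 0 RPM in WT. Ctsk, the collagen-degrading cathepsin of osteoclasts, reached 3.45 RPM in Het and 1.90 RPM at most in KO testis, against 0.163 RPM at most in WT. For these 3 genes KO replicate 1 lay within the WT range or at its lower end. The macrophage marker Csf1r had the same order: it was at 0.814, 18.1 and 28.6 RPM in KO, 24.4 RPM in Het and 1.36 and 2.60 RPM in WT testis, and 8 of the 12 markers were at 0 in KO replicate 1. The 9 neutrophil markers summed to 1.96 RPM at most in KO and 4.39 RPM at most in WT testis.

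Ctso, a cysteine cathepsin of little-known function (chr3:81932601-81956725), had a pattern of its own. It was at 0, 22.4 and 28.4 RPM in KO testis, 29.8 RPM in Het and 25.7 and 19.5 RPM in WT. The KO replicate 1 library thus had no read where the other 5 libraries lay between 19.5 and 29.8 RPM, and 3 reads would have been 0.407 RPM there. The same library gave the fewest genes with reads, 15435 against 20115 to 22587 in the other testis libraries. In round spermatids Ctso was at 19.0, 18.4 and 23.6 RPM in KO, 11.5 and 13.6 RPM in Het, against 30.8 and 11.6 RPM in WT, with KO replicate 1 inside the range.

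**Figure D3:**
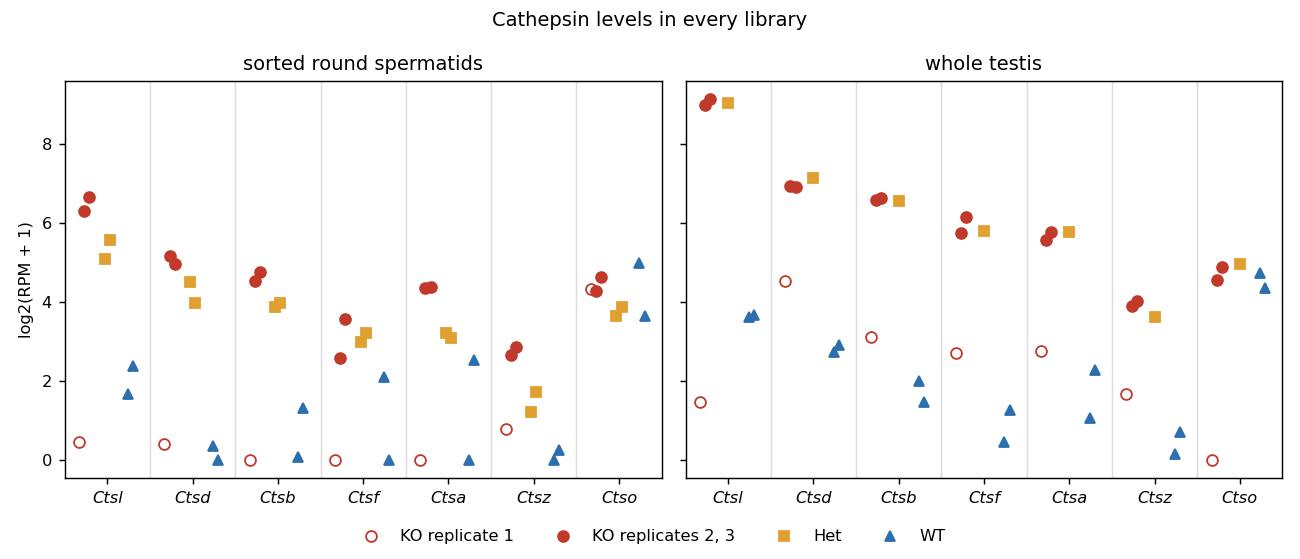
log2(RPM + 1) of 7 cathepsins in every library, round spermatids on the left and testis on the right. Circles are KO (open for replicate 1), squares Het and triangles WT. For Ctsl, Ctsd, Ctsb, Ctsf, Ctsa and Ctsz in testis, KO replicates 2 and 3 lie with Het and above WT, and KO replicate 1 lies lower; Ctso differs, with only KO replicate 1 at 0.

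MMPs in testis summed to 50.8, 50.4 and 81.3 RPM in KO, 45.8 RPM in Het and 18.8 and 18.5 RPM in WT. Mmp11, stromelysin-3, which is activated inside the cell by furin (chr10:75923222-75936496), was at 14.8, 13.4 and 24.9 RPM in KO, 11.8 RPM in Het and 3.90 and 4.05 RPM in WT. All 4 KO and Het libraries were above both WT libraries, KO replicate 1 included. Without strand, reads of Mmp11 cannot be separated from its antisense partner Chchd10 where their exons overlap (155 bases). Chchd10 had the same split, at 31.86, 25.03 and 35.27 RPM in KO, 18.91 RPM in Het and 14.75 and 11.15 RPM in WT. Its part in the Mmp11 difference was not tested. Mmp14, the membrane-type enzyme that activates pro-Mmp2 (chr14:54431612-54445364), was at 0.814, 17.2 and 27.4 RPM in KO, 17.6 RPM in Het and 1.25 and 0.127 RPM in WT (KO minus WT +2.62 ± 1.31, SE, limma adjusted p = 0.282). Its substrate Mmp2, the smaller gelatinase, was at 0, 2.28 and 4.31 RPM in KO, 3.74 RPM in Het and 0.759 and 0 RPM in WT (+0.97 ± 0.82, limma adjusted p = 0.484). Mmp14 and Mmp2 shared the order of the sets, with KO replicate 1 beside WT.

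Single libraries set other MMP values. Mmp17, a membrane-type MMP anchored by a lipid, was at 13.8, 0.235 and 0.507 RPM in KO testis, 1.44 RPM in Het and 0.217 and 0 RPM in WT, so its level rested on KO replicate 1. Mmp16, another membrane-type MMP, was at 4.20, 3.84 and 3.55 RPM in KO, 2.11 RPM in Het and 1.25 and 3.80 RPM in WT, where the groups overlapped. Mmp23 was at 0.271, 0.942 and 4.31 RPM in KO, 1.15 RPM in Het and had no read in either WT testis library. Mmp28, epilysin, an MMP described in testis among other tissues (chr11:83440768-83463071), was at 15.3, 9.10 and 9.31 RPM in KO, 2.59 RPM in Het and 8.41 and 9.12 RPM in WT testis. The Het library was the lowest of the 6.

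Het testis had 1 library, which is assumed to vary like the other groups, and Het minus WT called 0 of 20 genes (0% of 18570 genes; limma, 6 of the 20 at an unadjusted p below 0.05, 0 by voom). The Het library was above both WT libraries for 18 of the 20, against 67.2% of all genes, and below both for Mmp28 alone, against 22.5%. Ctsd, Ctsf, Ctsb and Ctsa had the smallest p, with differences of +4.29 ± 1.09, +4.93 ± 1.53, +4.81 ± 1.53 and +4.09 ± 1.43 (SE) and limma adjusted p of 0.177, 0.190, 0.195 and 0.214. KO minus Het also called 0 genes (0 of the 20 with an unadjusted p below 0.05, 0 by voom). Every KO library was above Het for 3 of the 20 genes and below it for 7, against 12.9% and 30% of all genes.

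**Figure D4:**
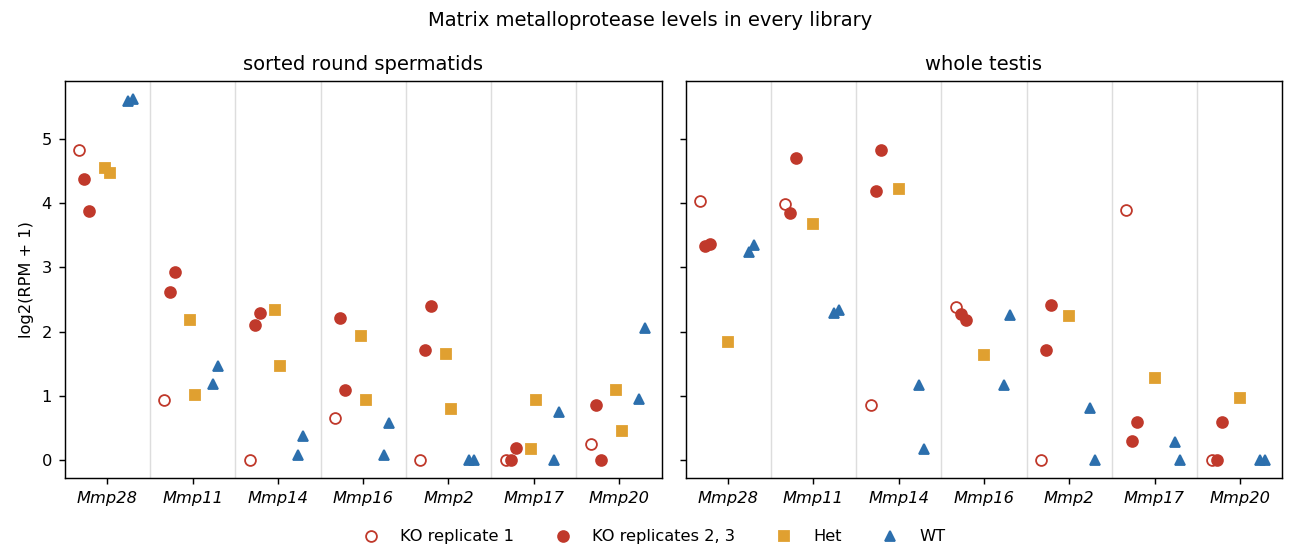
log2(RPM + 1) of 7 MMPs in every library, round spermatids on the left and testis on the right, with the same marks as for the cathepsins. In round spermatids the Mmp28 values of the 2 WT libraries (47.1 and 47.9 RPM) lie above all KO and Het values; in testis Mmp17 is high only in KO replicate 1 (13.8 RPM).

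In round spermatids the same genotypes were compared in sorted haploid germ cells. Mmp28 had the highest level per kilobase of the MMPs there, at 27.3, 19.7 and 13.6 RPM in KO, 22.3 and 21.2 RPM in Het, against 47.1 and 47.9 RPM in WT. It averaged 20.2 ± 6.87 RPM in KO (SD, n = 3), 21.7 ± 0.819 RPM in Het (SD, n = 2) and 47.5 ± 0.593 RPM in WT (SD, n = 2), and all 5 KO and Het libraries were below both WT libraries. The differences from WT in limma's fit were -1.24 ± 0.32 for KO (SE, adjusted p = 0.128) and -1.09 ± 0.35 for Het (SE, adjusted p = 0.103). KO replicate 1, the KO library that lay beside WT on the first principal component, was also below WT: within library set 1 the difference was -0.78 ± 0.29 (SE, limma adjusted p = 0.215). Without KO replicate 1 the KO difference was -1.48 (limma adjusted p = 0.000773), and over all alternatives the adjusted p ran from 0.000773 to 0.730. With the library set as a covariate the differences from WT were -0.78 for KO, again from KO replicate 1 alone, and -0.39 for Het (limma adjusted p = 0.882). No set holds both Het and WT libraries, so the Het value takes the gap between KO replicates as the set effect. Of the 12 round spermatid markers, 5 were below both WT libraries in every KO library and 1 was above, against 19.4% and 16.6% of all genes. Spaca1, the most abundant of them here, differed little, at 444, 417 and 357 RPM in KO, against 451 and 458 RPM in WT. Prm1, a protamine of condensing spermatids, was at 68.8, 54.2 and 13.1 RPM in KO, 49.1 and 42.8 RPM in Het, against 150 and 152 RPM in WT (KO minus WT -2.01 ± 0.55, SE, limma adjusted p = 0.131), and Tnp2 and Prm2 were at -1.64 and -1.31 (limma adjusted p = 0.134 and 0.135). Their part in the Mmp28 difference was not tested. The antisense partner 1700020L24Rik was also below WT in all KO and Het libraries, at 65.8, 43.2 and 36.3 RPM in KO, 47.6 and 42.4 RPM in Het, against 85.6 and 96.8 RPM in WT. Every KO library was below both WT libraries for Mmp28 and Mmp20, against 19.4% of all genes. Mmp20 was at 0.191, 0.820 and 0 RPM in KO, 1.13 and 0.369 RPM in Het, against 0.935 and 3.14 RPM in WT.

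The cathepsins of round spermatids were low in KO replicate 1 and in WT. They summed to 25.3, 194 and 231 RPM in KO, 109 and 115 RPM in Het, against 41.4 and 26.4 RPM in WT. KO minus WT called 0 of the 19 genes tested (limma, 0% of 18075 genes; 5 of the 19 at an unadjusted p below 0.05, 0 by voom; 3813 genes, 21.1%, with an unadjusted p below 0.05). The difference was positive for 17 of 19, with a median of +1.16 against +0.03 over all genes, and for 11 of 11 cathepsins. With the library set as a covariate, where KO minus WT rests on KO replicate 1 alone, it was negative for 6 of the 11 cathepsins. Ctsa, Ctsb and Ctsl were among them, and the median over the 19 was -0.06, against -0.12 over all genes. Every KO library was above both WT libraries for Ctsz, Ctsc, Ctsd and Mmp16, against 16.6% of all genes.

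Ctsl was at 0.382, 77.9 and 99.2 RPM in KO round spermatids, 33.2 and 46.6 RPM in Het, against 2.22 and 4.22 RPM in WT (KO minus WT +2.44 ± 1.45, SE, limma adjusted p = 0.348). Ctsd was at 0.334, 34.7 and 30.2 RPM in KO, 21.7 and 14.6 RPM in Het, against 0.292 and 0 RPM in WT (+3.33 ± 1.16, limma adjusted p = 0.163). For both, KO replicates 2 and 3 were the highest libraries, Het came next, and KO replicate 1 was near the WT libraries or below them. Ctsb had the same order, at 0, 21.9 and 26.1 RPM in KO, 13.7 and 14.7 RPM in Het, against 0.0584 and 1.52 RPM in WT (+2.39 ± 1.18, limma adjusted p = 0.274). Ctsa was at 0, 19.4 and 19.7 RPM in KO, 8.33 and 7.48 RPM in Het, against 0 and 4.76 RPM in WT (+1.64 ± 1.20, limma adjusted p = 0.440). Ctsz was at 0.717, 5.27 and 6.25 RPM in KO, 1.33 and 2.31 RPM in Het, against 0 and 0.196 RPM in WT (+1.97 ± 0.63, limma adjusted p = 0.147). In Ctsz, unlike Ctsl, Ctsb and Ctsa, KO replicate 1 was above both WT libraries. Ctsc was at 1.62, 2.93 and 1.42 RPM in KO, 2.60 and 1.57 RPM in Het, against 0.643 and 0 RPM in WT (+1.19 ± 0.46, limma adjusted p = 0.191).

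Mmp2 and its activator Mmp14 were low in these cells. Mmp14 was at 0, 3.28 and 3.90 RPM in KO, 4.06 and 1.76 RPM in Het, against 0.0584 and 0.294 RPM in WT round spermatids (+1.24 ± 0.68, SE, limma adjusted p = 0.316). Mmp2 was at 0, 2.28 and 4.26 RPM in KO, 2.13 and 0.739 RPM in Het and had no read in either WT library (+1.37 ± 0.66, limma adjusted p = 0.264). Both again had reads in library set 2 and few or none in set 1. Mmp11 was at 0.908, 5.10 and 6.60 RPM in KO, 3.53 and 1.02 RPM in Het, against 1.29 and 1.77 RPM in WT, with overlapping groups.

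Het minus WT in round spermatids called 0 of 19 genes (limma, 0% of 18075 genes, 5 of the 19 at an unadjusted p below 0.05, 0 by voom). Both Het libraries were above both WT libraries for 13 of them and below for Mmp28 alone, against 40.6% and 23.2% of all genes. Beside Mmp28, Ctsd (+4.05 ± 1.27, SE, limma adjusted p = 0.101), Ctsb (+3.21 ± 1.29, limma adjusted p = 0.161) and Ctsc (+1.25 ± 0.51, limma adjusted p = 0.166) had the smallest p. With the library set as a covariate Ctsd and Ctsb reversed, to -0.59 and -1.43 (limma adjusted p = 0.885 and 0.706). These values are not differences seen within a set, since no set holds both Het and WT. They take the gap between KO replicates as the set effect. KO minus Het called 0 of the 19 (limma; 0% of genes called higher and 0.0111% lower, 0 of the 19 with an unadjusted p below 0.05, 0 by voom). Ctso was the gene above Het in every KO library (+0.65 ± 0.40, limma adjusted p = 0.889), against 6.19% of all genes.

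**Figure D5:**
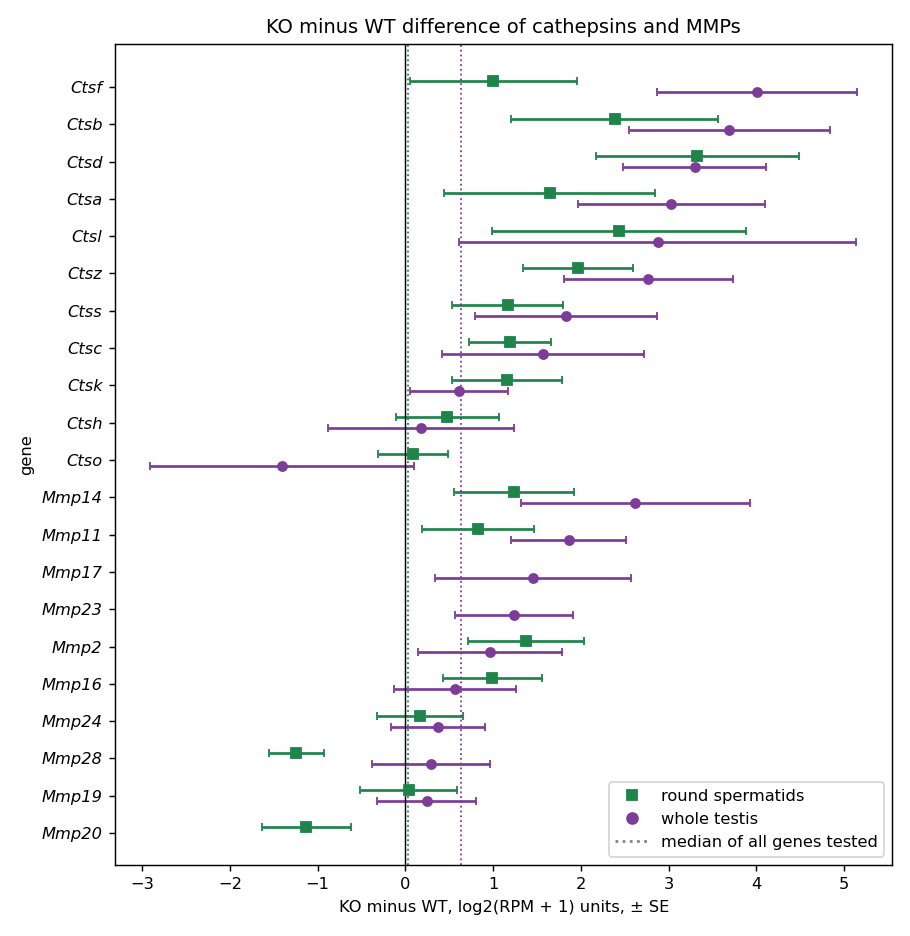
KO minus WT on the log2(RPM + 1) scale with its SE for the genes that passed the filter, in round spermatids (squares) and testis (circles); dotted lines are the medians of all tested genes (+0.03 in round spermatids, +0.63 in testis). In round spermatids 17 of 19 genes and in testis 13 of 20 lie right of the dotted line, with Mmp28 and Mmp20 in round spermatids and Ctso in testis left of 0.

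Because KO replicate 1 stood apart from the other KO libraries, each comparison was also made without it and within the sets. Without KO replicate 1, which leaves KO in set 2 and WT in set 1, so that genotype and set cannot be told apart, limma called 13 of 19 genes higher and 0 lower in KO testis, where 51.2% of all genes were called higher and 14% lower. In round spermatids it called 11 of 19 higher and 1 lower, Mmp28, against 19.5% and 11.3% of all genes. Set by set, every library of set 2 was above every library of set 1 for 14 of 20 genes in testis (50.2% of all genes) and below for none (11.7%), and in round spermatids for 10 of 19 (25.6%) and below for Mmp28 (13.5%). The sets were drawn from these same values, so the counts describe the split and test nothing. Some genes passed the filter through set 2 alone, being under 1 RPM in every set 1 library. These were Ctsd, Ctsk, Ctsz, Mmp2, Mmp14 and Mmp16 among others in round spermatids, and Ctsc, Ctsk, Ctss, Mmp2, Mmp19 and Mmp23 among others in testis. KO replicate 1 was above both WT testis libraries for 11 of the 20 genes (37.8% of all genes) and below both for Ctsh, Ctsl, Ctso and Mmp19 (43.9%). In round spermatids it was above both WT libraries for 5 of 19 (26.4%) and below both for 6 (42.6%), among them Ctsl, Ctsb and Mmp28.

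Within set 1 in testis, where KO is replicate 1 alone and is assumed to vary like the WT pair, 2 of the 10 genes tested rose and 2 fell relative to WT (20% each), near the 19.3% and 22.8% of all genes. KO replicate 1 is the testis library with the fewest genes with reads. Ctsd was higher in KO by 1.71 ± 0.64 (log2 difference, SE, limma adjusted p = 0.0306) and Ctsf by 1.85 ± 0.71 (limma adjusted p = 0.0348). Ctsl was at -2.18 ± 0.69 (limma adjusted p = 0.0116) and Ctso at -4.55 ± 0.68 (limma adjusted p = 4.61e-06), both lower in KO. Over all alternatives the adjusted p ran from 1.59e-09 to 0.550 for Ctsd, 9.29e-09 to 0.596 for Ctsf and 2.03e-09 to 0.757 for Ctsl. Within set 1 the direction for Ctsl was thus opposite to that over all libraries. In round spermatids no gene of the 6 tested within set 1 was called, against 0.238% of all genes higher and 1.03% lower.

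Within set 2 all libraries carry the KO or Het genotype. In testis, KO replicates 2 and 3 and Het had nearly equal Ctsl, and of 20 genes 6 were above Het in both KO libraries and 8 below, against 33.5% and 37.2% of all genes. In round spermatids KO replicates 2 and 3 were both above both Het libraries for 10 of 19 genes (Ctsa, Ctsb, Ctsd, Ctsk, Ctsl, Ctso, Ctss, Ctsz, Mmp2 and Mmp11), 8 of them among the 11 cathepsins tested, against 16.3% of all genes. The median KO minus Het difference over the 19 was +0.70, against -0.03 over all genes, and Mmp28 was the gene below Het in both (21.4% of all genes). limma's fit within set 2 called 0 of these genes in either cell type, where 0.00588% of genes were called higher and 0.0176% lower in round spermatids, and 0.0057% and 0.057% in testis. The Sertoli marker sum was also higher in the 2 KO libraries (191 and 172 RPM) than in the Het libraries (78.9 and 75.7 RPM), and so was the stroma sum (633 and 1093 RPM against 553 and 496 RPM). Clu alone made up 129 and 122 RPM of the Sertoli sum in these KO libraries and 45.4 and 46.1 RPM in Het.

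Round spermatids were compared with testis in WT and in KO, in 1 fit of all 13 libraries. In WT, limma called 1 of 21 genes higher in round spermatids, Mmp28 (+2.31 ± 0.46, SE, adjusted p = 0.0083), and 0 lower, against 9.09% and 2.39% of all genes. Its WT levels were 47.1 and 47.9 RPM in round spermatids and 8.41 and 9.12 RPM in testis. The antisense partner 1700020L24Rik was also higher, at 85.6 and 96.8 RPM in WT round spermatids and 18.8 and 19.9 RPM in WT testis. Without strand, reads of both genes cannot be separated where their exons overlap (466 bases). The call was lost with libraries centred on their medians or quantile-normalized (limma adjusted p = 0.128 and 0.101), and without WT replicate 1 or 2 of round spermatids or WT replicate 1 of testis (limma adjusted p = 0.0738, 0.0758 and 0.0642). Mmp20 came next (+1.50 ± 0.46, SE, limma adjusted p = 0.0591). Both WT spermatid libraries were above both WT testis libraries for Mmp20 and Mmp28, against 38.6% of all genes, and below both for Ctsb, Ctsd, Ctsh, Ctsl, Mmp11 and Mmp16, against 23.7% of all genes. In KO, 0 of 21 genes were called (limma, against 0.936% of all genes higher and 1.42% lower; 3 with an unadjusted p below 0.05, 0 by voom). With the replicate number as a block, limma called 4 lower in round spermatids (Ctsd, Ctsl, Ctsb and Ctsf, against 3.13% of all genes) and 0 higher (1.79%). No label pairs these libraries. The pairing was taken from correlations in the same data, where the split of KO replicate 1 from the others recurs in both cell types. Every KO spermatid library was above every KO testis library for 0 of the 21 (10.4% of all genes) and below for Mmp11 and Mmp17 (11.1%). Mmp11 had the smallest p (-2.02 ± 0.60, SE, limma adjusted p = 0.0901), and Mmp28 was at +0.78 (limma adjusted p = 0.252). Chchd10, the antisense partner of Mmp11, was also lower in every KO spermatid library than in every KO testis library.

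The difference between the KO effects in round spermatids and in testis was tested as an interaction. It called 0 of 21 genes (limma, against 0.294% of all genes higher and 1.84% lower; 2 with an unadjusted p below 0.05, 0 by voom). Mmp28 had the smallest p, with -1.53 ± 0.59 (SE, limma adjusted p = 0.205), followed by Mmp20 (-1.33, limma adjusted p = 0.282) and Ctsf (-3.01, limma adjusted p = 0.400). The counts depended on the fit: with library quality weights limma called 3 (Mmp28, Mmp14 and Ctsf, all lower, against 27.8% of all genes). With the library set as a covariate, the interaction rests on KO replicate 1 against WT in each cell type. The Mmp28 interaction was -1.52 with that covariate and -1.37 with quality weights (limma adjusted p = 0.0183). It was -0.71 with libraries centred on their medians and -0.44 when quantile-normalized (limma adjusted p = 0.755 and 0.823).

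Genes that act with cathepsins were taken from lists. Of 50 lysosome genes tested in testis, 0 passed limma's test for KO minus WT, 40 differences were positive and the median was +1.43, against +0.63 over all genes. Every KO library was above both WT libraries for 16 of them and below for 2 (28.2% and 14.1% of all genes). Mcoln1, the lysosomal calcium channel, had the smallest p (+2.93 ± 0.56, SE, limma adjusted p = 0.0710). In round spermatids 0 of 48 passed and 42 were positive (median +0.80, against +0.03), with Atp6v1h, a subunit of the proton pump, first (+1.60 ± 0.25, limma adjusted p = 0.121). Lgmn, legumain, which processes cathepsin proenzymes, was at 2.58, 95.2 and 101 RPM in KO, 97.0 RPM in Het and 5.04 and 1.77 RPM in WT testis, likewise high in the libraries of set 2. Lamp1, a lysosomal membrane protein, differed less, at 324, 664 and 619 RPM in KO, 633 RPM in Het and 597 and 561 RPM in WT testis.

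A further list held cystatins, related genes and cysteine protease inhibitors. Whether each listed gene inhibits cathepsins was not tested. Of 10 of them tested in testis, 5 KO minus WT differences were positive and 5 negative (median +0.10, against +0.63 over all genes, 0 called by limma). In round spermatids 5 were positive and 5 negative (median +0.18, against +0.03 over all genes, 0 called). Cst8, a cystatin of the male reproductive tract, was at 22.0, 17.9 and 11.1 RPM in KO, 16.2 RPM in Het and 133 and 68.3 RPM in WT testis (-2.47, limma adjusted p = 0.0785). Cst3, cystatin C, a secreted inhibitor, was at 27.4, 109 and 131 RPM in KO, 76.9 RPM in Het and 36.8 and 38.2 RPM in WT testis. Cst8 was lower in all KO libraries than in WT, while Cst3 followed the sets.

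For MMPs the lists held inhibitors and activators, and matrix substrates. Of 15 inhibitors and activators tested in testis 0 were called by limma and 13 were positive (median +1.68), and in round spermatids 0 of 13 were called and 9 were positive (median +0.95). Reck, a membrane-anchored MMP inhibitor, led in testis (+3.95 ± 0.79, SE, limma adjusted p = 0.0714). Timp2, which inhibits MMPs and takes part in the activation of pro-Mmp2 by Mmp14, was at 149, 128 and 129 RPM in KO, 107 RPM in Het and 120 and 90.4 RPM in WT testis, and at 195, 192 and 146 RPM in KO, 170 and 171 RPM in Het, against 233 and 247 RPM in WT round spermatids. Timp2 thus varied far less than Mmp14 in testis. Timp3, the matrix-bound inhibitor, was at 1.08, 23.1 and 24.4 RPM in KO, 35.1 RPM in Het and 1.41 and 0.127 RPM in WT testis, in the order of the sets. All 24 matrix substrate genes tested had a positive KO minus WT difference in testis (median +3.14, against +0.63 over all genes, 0 called by limma), led by Dcn at 72.9, 146 and 166 RPM in KO, 148 RPM in Het and 2.39 and 3.29 RPM in WT (limma adjusted p = 0.0710). In round spermatids 22 of 24 were positive (median +1.68, 0 called).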

How the data were processed

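RNA was measured in 13 Smart-seq2 libraries. Per the submitters' processing notes, the tools were HISAT2 2.1.0, with build mm10, and for quality and trimming FastQC 0.11.8 and Trim Galore 0.6.6. For the counter and its annotation the sources used here give no name. The deposited values are log2 RPM. Between 99.70% and 99.996% of values per library came out as whole reads within 0.01 read, with 0.9 read standing for none, and RPM was recomputed with those at 0. The table held 0 other columns of per-sample values. Positions and exon lengths came from GENCODE M21, at identical coordinates for all 40 genes.

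A gene entered a fit when 2 or more of its libraries reached 1 RPM, and was tested on log2(RPM + 1), which understates changes of low genes. The test was limma 3.58.1 (lmFit, eBayes with trend, R 4.3.3), two-sided, Benjamini-Hochberg over all tested genes, threshold 0.05. Testis and round spermatids had separate fits over 3 genotypes; contrasts between cell types used all 13 libraries. Depth intervals cover counting error only, since reads carry no molecular identifiers. Groups followed the labels.

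The genes and lists were chosen with earlier results of these data known. Tests are printed for the 4 genes with the smallest p per comparison. For KO minus WT they are also printed for Ctsa, Ctsb, Ctsd, Ctsl, Ctsz, Mmp2 and Mmp14. The within-set tests printed beside them were chosen after their values were seen. So were Prm1, Tnp2, Prm2, Spaca1, Clu, Csf1r, Lgmn, Lamp1, Cst3, Timp2 and Timp3. Lists held lysosome genes, cystatins with related genes and cysteine protease inhibitors, inhibitors and activators of MMPs, matrix substrates and markers of 11 cell types. KO minus WT medians for the markers in testis and round spermatids were: Sertoli +2.16 and +0.79, Leydig +2.30 and +1.16, peritubular +1.59 and +0.79, stroma +4.05 and +3.13, macrophage +1.67 and +0.87, endothelial +0.95 and -0.87, spermatogonia +1.61 and +0.74, spermatocyte +1.52 and +0.54, and round spermatid -0.33 and -0.42, with 0 called; of neutrophil and T and NK markers 1 each was tested. Alternatives covered the pseudocount, filter, scaling, library weights, voom on recovered reads, a replicate block, sets as a covariate, fits within sets and leaving out each library. Replicate numbers were taken to pair round spermatids with testis in KO alone, from the correlation of same-numbered libraries (0.283 to 0.504), and not from the labels. Fits were tested on simulated data.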

Additional observations from a re-analysis of the deposited data

How the results depend on the processing

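Of 839 values of single genes under alternatives, 829 kept their direction. The 10 that reversed were, with the library set as a covariate, Ctsl (-2.18) and Mmp2 (-0.41) for KO minus WT in testis, Ctsa (-1.26), Ctsb (-0.71), Ctsl (-1.57) and Mmp14 (-0.23) for KO minus WT in round spermatids, and Ctsd (-0.59) and Ctsb (-1.43) for Het minus WT there; within set 1, Ctsl was at -2.18 in testis and -1.57 in round spermatids. For KO minus WT the covariate fit rests on KO replicate 1 against WT, so the Ctsl values within set 1 repeat those with the covariate. No set holds both Het and WT libraries. The cause of the reversals was not tested.

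The count of proteases called was 0 in every comparison but round spermatids minus testis in WT, where it was 1. With library quality weights it was 13 for KO minus WT in testis, where 67.5% of all genes were called. In round spermatids it was 12 and 7 for KO and Het minus WT (31.6% and 26.6% of all genes). For round spermatids minus testis in WT and KO it was 3 and 11 (31% and 51.4%), and for the interaction 3 (34.6%). For KO or Het minus WT and the interaction, the fit with the set as a covariate rests on KO replicate 1. With that covariate the count was 6 and 11 for round spermatids minus testis in WT and KO (33.5% and 36.1% of all genes called). Within set 1 KO is also replicate 1 alone. In the fit of all 13 libraries it was 2 for KO minus WT in testis. At an adjusted p under 0.1 it was 1 for KO minus WT in testis, and 2 and 1 for round spermatids minus testis in WT and KO. Round spermatids minus testis in WT gave 2 with voom and with the values as deposited, and 0 with centred libraries; with quantile-normalized libraries the 1 called was Mmp20, not Mmp28. Counts with a replicate block were 5 for Het minus WT and 1 for KO minus Het in testis, 2 for Het minus WT in round spermatids, and 2 and 4 for round spermatids minus testis in WT and KO. Same-numbered libraries correlated at 0.504, 0.283 and 0.403 between the cell types in KO, where the set split recurs, at -0.0233 in WT, and between KO and WT at 0.0191 and 0.00272 in testis and 0.0456 and 0.0166 in round spermatids; the numbers were taken to pair libraries in round spermatids minus testis in KO alone, and the labels tie no number to an animal.

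Leaving out each library in turn gave 0 to 13 for KO minus WT and 0 to 14 for Het minus WT in testis, 0 to 12 and 0 to 8 in round spermatids, 0 to 2 and 0 to 10 for round spermatids minus testis in WT and KO, and 0 to 1 for the interaction. The highest counts for KO or Het minus WT came without KO replicate 1 of that cell type, and that for round spermatids minus testis in KO without testis KO replicate 1. Without KO replicate 1, KO minus WT called 51.2% of all genes higher and 14% lower in testis. In round spermatids it called 19.5% higher and 11.3% lower. The Mmp28 call between cell types in WT was lost without testis WT replicate 1 or either WT spermatid library. Depth limits genes under about 0.4 RPM in the shallowest library.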
